A study of Homo sapiens with 32 samples.

Results

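The genes described here are 10 brakes and inputs of the kinase complex mTORC1, namely DDIT4, DDIT4L, SESN2, TSC1, TSC2, TBC1D7, RHEB, PRKAA1, PRKAA2 and STK11. They were taken by gene symbol from the protein-coding rows of the count tables of both cell lines, with no filter on their values. All 10 of them were found among 19815 protein-coding genes. The list itself was chosen with earlier results of these data known. In MCF10A cells in hypoxia, the mRNA of DDIT4 (REDD1) stood 2.96-fold above normoxia in total RNA and 2.98-fold above it in polysomal RNA, with no overlap between libraries, but this change did not pass the test over all genes (adjusted p = 0.113 and 0.103). In MDA-MB-231 cells, SESN2 fell and TSC1 rose in polysomal RNA under hypoxia with the mTOR inhibitor PP242. These were the only calls in the main edgeR fit, which had no replicate block, in the 12 comparisons of a treatment with normoxia. DESeq2, replicate blocks and other settings made further calls that are given below.

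mTORC1 drives protein synthesis and cell growth when nutrients, growth factors and energy are plentiful, and it is switched on at the lysosome by the small GTPase RHEB in its GTP-bound form. The TSC complex, built from TSC1, TSC2 and TBC1D7, stimulates RHEB to hydrolyse its GTP and so holds mTORC1 down. REDD1, the product of DDIT4, is a stress-induced protein that acts through the TSC complex in low oxygen, and DDIT4L encodes its paralogue REDD2. The kinase LKB1 (STK11) activates AMPK, whose catalytic subunits are encoded by PRKAA1 and PRKAA2 and which phosphorylates TSC2 when energy is low, while sestrin 2 (SESN2) holds mTORC1 down when leucine is scarce.

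RNA-Seq was done on total mRNA (T) and on mRNA bound to polysomes in a sucrose gradient (P), to ask which transcripts change in abundance and which in translation when oxygen and mTOR signalling are limited. MCF10A is an immortalised, non-tumourigenic mammary epithelial line, and MDA-MB-231 is a triple-negative breast carcinoma line. Each line was held in normoxia with vehicle (N), in hypoxia at 0.5% O2 for 24 hours with vehicle (H), in normoxia with 2.5 µM PP242 for 3 hours (NPP), or in hypoxia with PP242 at the same dose and duration (HPP). The vehicle was DMSO, and PP242 blocks the kinase of both mTOR complexes. Each of the 8 groups of a line had 2 biological replicates, which gave 16 libraries per line and 32 in all, with 18340916 to 46032327 counts per library (median 34561484).

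The labels were checked against known genes. CA9, a carbonic anhydrase induced by low oxygen, ran from 7.72 to 26.9 CPM (counts scaled to library size with TMM factors) in normoxic MCF10A and from 522 to 1360 CPM in hypoxic MCF10A. The carcinoma line gave 0.0568 to 1.02 CPM in normoxia and 13 to 34.6 CPM in hypoxia. In polysomal RNA the elongation factor mRNA EEF1A1, whose translation depends on mTOR, lay at 9260 to 12500 CPM without PP242 and 1950 to 3820 CPM with it in MCF10A, and at 10400 to 14400 and 4540 to 6360 CPM in MDA-MB-231. Neither gene overlapped between treated and untreated libraries in these sets. Among the markers of basal mammary epithelium, KRT5 was present at 1190 to 3270 CPM in MCF10A and at no more than 0.284 CPM in MDA-MB-231. KRT14, KRT17 and ITGB4 were also higher in MCF10A, at no less than 458, 48.5 and 192 CPM. In MDA-MB-231 they reached no more than 0.61, 6.36 and 55.9 CPM. The summed basal list ran from 1890 to 9530 CPM in MCF10A and from 13.2 to 58.9 CPM in MDA-MB-231. TP63 and CDH1, 2 defining markers of that list, were nearly absent from the MCF10A libraries, at no more than 0.226 and 0.361 CPM. Of the mesenchymal markers taken for MDA-MB-231, ZEB1 and MSN were higher in that line, at 43.6 to 88.2 and 568 to 1000 CPM. TGFBI and SPARC went against the label, at no more than 53.9 and 0.796 CPM there and at least 5800 and 91.7 CPM in MCF10A. VIM overlapped, at 3110 to 6080 CPM in MDA-MB-231 and 1690 to 9370 CPM in MCF10A. The summed mesenchymal list also went against the label, at 3900 to 7210 CPM in MDA-MB-231 and 7970 to 28400 CPM in MCF10A. This sum is not separate from TGFBI, which alone ran from 5800 to 18500 CPM in MCF10A. The summed markers of leukocytes and of endothelium stayed at or below 2.18 CPM in every library.

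The promoters of 5 of these genes are shown first, because DDIT4 is a known target of the hypoxia-inducible factors and its neighbours in the pathway differ in whether they carry the factors' core motif. Each sequence is the RefSeq window of GRCh38.p14 from 250 bases before to 50 bases after the transcription start, on the strand of the gene, and capitals mark the core letters ACGTG or GCGTG on either strand.
DDIT4, chr10:72273674-72273973, plus strand: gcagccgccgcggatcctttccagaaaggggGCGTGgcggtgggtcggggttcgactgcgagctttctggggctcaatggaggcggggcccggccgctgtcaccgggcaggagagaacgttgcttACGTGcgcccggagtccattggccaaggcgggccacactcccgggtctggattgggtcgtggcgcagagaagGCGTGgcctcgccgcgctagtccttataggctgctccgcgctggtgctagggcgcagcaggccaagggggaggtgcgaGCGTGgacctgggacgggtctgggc
DDIT4L, chr4:100190419-100190718, minus strand: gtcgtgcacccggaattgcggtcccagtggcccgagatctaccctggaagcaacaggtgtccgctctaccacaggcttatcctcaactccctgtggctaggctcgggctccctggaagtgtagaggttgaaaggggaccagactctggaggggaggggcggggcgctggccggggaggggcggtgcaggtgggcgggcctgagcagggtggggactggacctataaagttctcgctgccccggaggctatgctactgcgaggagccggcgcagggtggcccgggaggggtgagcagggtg
SESN2, chr1:28259268-28259567, plus strand: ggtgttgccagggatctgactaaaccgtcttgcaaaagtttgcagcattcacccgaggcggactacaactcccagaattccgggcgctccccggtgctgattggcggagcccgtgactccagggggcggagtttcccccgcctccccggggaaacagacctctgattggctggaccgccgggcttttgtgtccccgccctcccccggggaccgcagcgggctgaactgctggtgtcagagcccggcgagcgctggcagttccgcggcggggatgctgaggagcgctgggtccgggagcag
TSC1, chr9:132944567-132944866, minus strand: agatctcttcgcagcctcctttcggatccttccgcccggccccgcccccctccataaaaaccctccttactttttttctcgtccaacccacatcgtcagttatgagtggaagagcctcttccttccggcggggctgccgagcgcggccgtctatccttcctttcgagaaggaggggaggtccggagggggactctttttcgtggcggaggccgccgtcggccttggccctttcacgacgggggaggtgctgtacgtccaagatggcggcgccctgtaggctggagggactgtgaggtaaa
STK11, chr19:1205528-1205827, plus strand: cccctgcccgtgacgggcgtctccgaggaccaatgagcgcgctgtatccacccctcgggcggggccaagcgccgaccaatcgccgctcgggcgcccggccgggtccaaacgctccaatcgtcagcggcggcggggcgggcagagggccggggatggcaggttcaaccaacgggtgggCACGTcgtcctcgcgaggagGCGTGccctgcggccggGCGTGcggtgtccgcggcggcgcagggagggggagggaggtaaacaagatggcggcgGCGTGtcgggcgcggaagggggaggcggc

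The window of DDIT4 held 4 matches, at positions −219, −125, −53 and 25 from the start, and that of STK11 also held 4. TBC1D7 had 2 and RHEB had 1, and of the 2 windows of TSC2 the first had 2, from a CACGTG read on both strands, and the second none. The windows of DDIT4L, SESN2 and TSC1 held none, nor did those of PRKAA1 and PRKAA2, so that 5 of the 10 genes had a match. At least 1 match was found in 48.4% of 35116 promoter windows of this length and at least 4 in 4.4%, and a CACGTG counts on both strands. Such a match is a description of the letters only, and binding was not measured here.

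The MCF10A libraries differed among themselves in the level of long against short genes, which bears on TSC1, TSC2 and PRKAA2, all with main transcripts over 6000 bases. For each library the median log2 deviation of genes with a transcript of at least 6000 bases was set against that of genes under 2000 bases. The difference was −1.44 in the second library of NPP T and −0.94 in the first of N P, followed by −0.749 in the second of HPP T and −0.617 in the first of H P, while the other MCF10A libraries lay between −0.154 and 0.695. In MDA-MB-231 it ran from −0.417 to 0.299. PRKAA1, with a main transcript of 5254 bases, stood at 74.6 CPM in the first and 14.4 CPM in the second library of NPP T. The part of RNA quality in these differences was not tested. MCF10A results are therefore given below, where they differ, also without the libraries N P 1 and NPP T 2, and with an offset that removes the smooth dependence on transcript length in each library. Both of these alternatives were chosen after seeing the data.

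**Figure D1:**
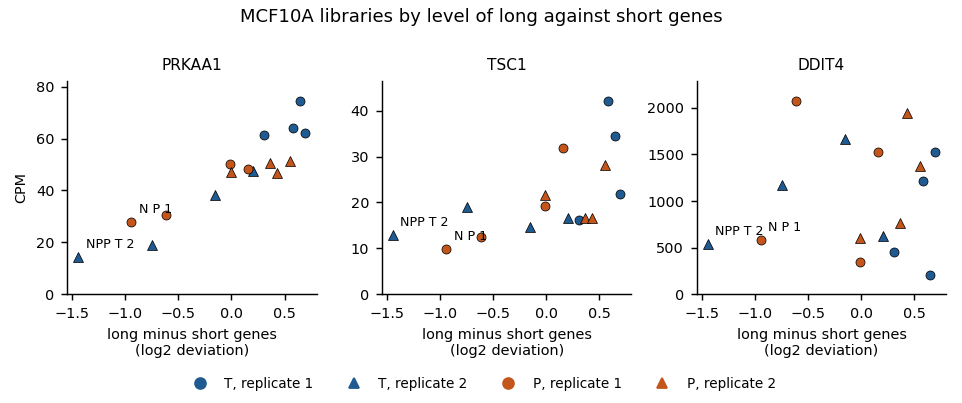
CPM of PRKAA1, TSC1 and DDIT4 in the 16 MCF10A libraries (y axes) against the median log2 deviation of long genes minus that of short genes (x axes), with T in blue, P in orange, replicate 1 as circles and replicate 2 as triangles. PRKAA1 is lowest in NPP T 2, the library farthest to the left at −1.44, while DDIT4 shows no such order.

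DDIT4 (ENSG00000168209, chr10:72273919-72276036 in GRCh38, plus strand, 3 exons) had the largest log2 fold change of these genes in MCF10A under hypoxia alone. In total RNA it was measured at 453 and 625 CPM in the N libraries, at 1524 and 1663 CPM in H, at 208 and 540 CPM in NPP and at 1217 and 1176 CPM in HPP. In polysomal RNA the values were 585 and 765 CPM in N, 2077 and 1941 CPM in H, 347 and 608 CPM in NPP, and 1526 and 1377 CPM in HPP. Every hypoxic library lay above every normoxic one, with or without PP242 and in both fractions, whereas NPP overlapped N. In bulk RNA, fewer cells that express a gene and less RNA per cell cannot be told apart. The log2 fold change in hypoxia was 1.56 ± 0.42 (SE) in T and 1.57 ± 0.42 in P, and with PP242 added it was 1.15 ± 0.41 in T and 1.11 ± 0.41 in P.

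All adjusted p-values here are Benjamini-Hochberg values from edgeR's quasi-likelihood test over all genes tested in a line, with 0.05 as the threshold, unless another tool is named. None of the 4 hypoxic contrasts of DDIT4 in MCF10A passed it (adjusted p = 0.113 in H T, 0.103 in H P, 0.0838 in HPP T and 0.0745 in HPP P). The NPP T libraries differed 2.59-fold in DDIT4, and leaving out either of them brought the call, with the remaining library assumed to vary like the other groups. Without the first NPP T library the adjusted p was 0.0235 in H T, 0.022 in H P, 0.0201 in HPP T and 0.0185 in HPP P. Without the second it was 0.0202, 0.0184, 0.0197 and 0.0167 in the same order, and no other single library changed the call. DESeq2 called all 4 contrasts (adjusted p from 0.00673 to 0.0318), as did the length offset (0.0163 to 0.0464). A block on the replicate number within each fraction also called all 4 (edgeR adjusted p = 0.0343 in H T). A single replicate block called HPP P alone (edgeR adjusted p = 0.0494). Replicates of different conditions share only that number. Without N P 1 and NPP T 2 the log2 fold change was 1.60 in H T and 1.25 in HPP T (adjusted p = 0.0226 and 0.0156), but 1.44 in H P and 0.98 in HPP P (adjusted p = 0.165 and 0.109). PP242 alone went with log2 fold changes of −0.53 ± 0.41 in T and −0.50 ± 0.41 in P (adjusted p = 0.752 and 0.683).

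In MDA-MB-231, DDIT4 was lower and its replicates were far apart. Total RNA gave 90.7 and 26.7 CPM in N, 99.1 and 84.8 CPM in H, 218 and 53.9 CPM in NPP, and 147 and 116 CPM in HPP. Polysomal RNA gave 134 and 35.9 CPM in N, 136 and 88.1 CPM in H, 294 and 66.9 CPM in NPP, and 186 and 140 CPM in HPP. The first library exceeded the second in all 8 groups, by 3.39-fold in N T and 4.05-fold in NPP T but only 1.17-fold in H T. The HPP libraries lay above both N libraries in each fraction, while H and NPP overlapped N. The log2 fold changes were 0.64 ± 0.73 in H T, 1.21 ± 0.74 in NPP T and 1.15 ± 0.74 in HPP T, and none passed the test (adjusted p = 0.799, 0.66 and 0.325). In P they were 0.41 ± 0.73, 1.09 ± 0.73 and 0.95 ± 0.73 (adjusted p = 0.824, 0.579 and 0.388). With a block on the replicate number, DDIT4 did pass by edgeR in HPP T. In both fractions the first NPP library stood above the first N library and the second NPP library above the second N library. Without the first NPP library, the second one, at 53.9 CPM in T and 66.9 CPM in P, is set against both N libraries, and the change turned to −0.14 in T and −0.34 in P.

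DDIT4L (ENSG00000145358, chr4:100185870-100190782, minus strand) was close to the limit of detection in MCF10A, with 0 to 14 counts per library, and was removed there by the filter on low counts. In MDA-MB-231 it was measured at 1.00 and 2.10 CPM in N T, 3.69 and 4.15 CPM in H T, 1.18 and 2.39 CPM in NPP T, and 3.91 and 3.42 CPM in HPP T. Polysomal RNA followed with 0.828 and 2.49 CPM in N, 3.74 and 4.41 CPM in H, 1.47 and 2.81 CPM in NPP, and 3.60 and 3.50 CPM in HPP. All 8 hypoxic libraries lay above all 8 normoxic ones. The log2 fold change was 1.38 ± 0.47 in H T and 1.26 ± 0.45 in H P (adjusted p = 0.208 and 0.168), and 1.29 ± 0.47 in HPP T and 1.06 ± 0.45 in HPP P (adjusted p = 0.084 and 0.111). HPP T passed by DESeq2 (adjusted p = 0.0496), in the fit to only the libraries compared (0.0321) and in the fit with no filter beyond 1 read (0.0247), which also called HPP P (0.0361).

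SESN2 (ENSG00000130766, chr1:28259518-28282491, plus strand, 10 exons) moved with oxygen in MDA-MB-231. In total RNA it stood at 12.8 and 16.5 CPM in N, 9.26 and 9.84 CPM in H, 17.1 and 14.9 CPM in NPP, and 10.1 and 9.97 CPM in HPP. In polysomal RNA it stood at 11.4 and 17.2 CPM in N, 8.04 and 8.99 CPM in H, 15.6 and 16.2 CPM in NPP, and 9.57 and 8.44 CPM in HPP. Every hypoxic library lay below every normoxic one, and PP242 alone left SESN2 within or near the range of N. The fall passed the test in HPP P, at a log2 fold change of −0.67 ± 0.20 (adjusted p = 0.0266). It was −0.75 ± 0.20 in H P (adjusted p = 0.0626), −0.62 ± 0.20 in H T (0.171) and −0.54 ± 0.20 in HPP T (0.0822). The call in HPP P was lost without N P 2, where the log2 fold change shrank to −0.34 (adjusted p = 0.29), and without HPP P 1 or HPP P 2 (adjusted p = 0.0895 and 0.166). It was also lost in the fit without a filter beyond 1 read and in the fit to only the libraries compared. DESeq2 called H P as well as HPP P (adjusted p = 0.0119 and 0.00706).

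In MCF10A, SESN2 had its lowest values in libraries with PP242, and no contrast passed the test. Total RNA gave 8.67 and 9.99 CPM in N, 10.4 and 7.55 CPM in H, 4.94 and 5.36 CPM in NPP, and 3.86 and 5.57 CPM in HPP. In polysomal RNA N gave 7.51 and 10.0 CPM, H 7.06 and 7.43 CPM, NPP 6.23 and 4.44 CPM, and HPP 4.08 and 7.94 CPM. The PP242 libraries lay below N in T and in NPP P, while 1 HPP P library reached into the range of N. The log2 fold change was −0.86 ± 0.35 in NPP T, −0.98 ± 0.35 in HPP T, −0.72 ± 0.35 in NPP P and −0.55 ± 0.35 in HPP P (adjusted p = 0.439, 0.0831, 0.413 and 0.283). Hypoxia alone gave −0.06 ± 0.35 in T, with overlap, and −0.28 ± 0.35 in P, where both H libraries lay below N (adjusted p = 1 and 0.867).

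**Figure D2:**
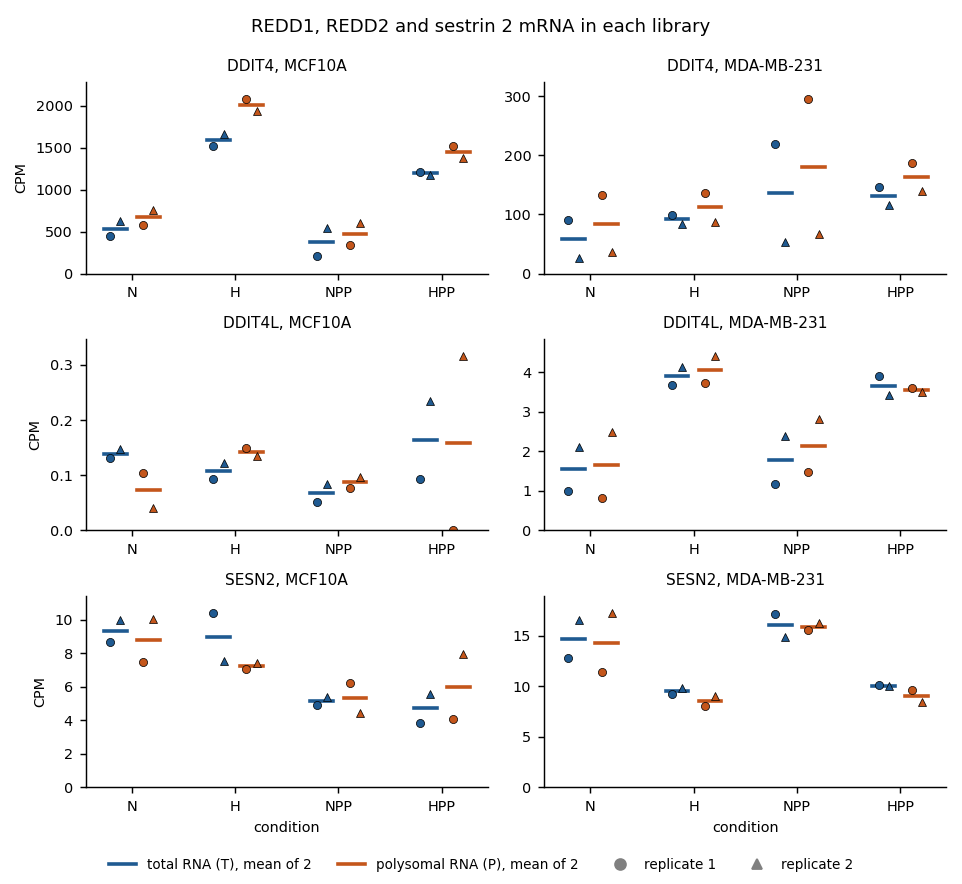
CPM of DDIT4, DDIT4L and SESN2 (y axes, from 0) in the 4 conditions (x axes) of MCF10A (left) and MDA-MB-231 (right), with T in blue, P in orange, circles for replicate 1, triangles for replicate 2 and bars for the mean of the 2. DDIT4 in MCF10A stands at 1176 CPM or more in all 8 hypoxic libraries and at 765 CPM or less in all 8 normoxic ones, and its 2 replicates in MDA-MB-231 lie far apart in N and NPP.

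Of the TSC complex, TSC1 (hamartin, ENSG00000165699, chr9:132891348-132946874, minus strand, 23 exons), which stabilises TSC2, was higher in libraries with PP242. In MDA-MB-231 total RNA it was measured at 30.6 and 28.6 CPM in N, 33.4 and 26.4 CPM in H, 47.3 and 43.1 CPM in NPP, and 35.3 and 40.9 CPM in HPP. In polysomal RNA it was measured at 24.8 and 27.4 CPM in N, 27.3 and 33.2 CPM in H, 40.2 and 38.3 CPM in NPP, and 37.8 and 35.9 CPM in HPP. All PP242 libraries lay above all others in both fractions. The rise passed the test in HPP P, at a log2 fold change of 0.50 ± 0.15 (adjusted p = 0.0343). NPP gave larger values that did not pass, 0.61 ± 0.15 in T and 0.59 ± 0.15 in P (adjusted p = 0.105 and 0.0694), and HPP T gave 0.36 ± 0.15 (0.132). DESeq2 called NPP T, NPP P and HPP P (adjusted p = 0.0126, 0.0185 and 0.0242). With the length offset, edgeR called TSC1 in NPP and HPP of both fractions. The values were 0.63 in NPP T, 0.53 in NPP P, 0.40 in HPP T and 0.38 in HPP P (edgeR adjusted p = 0.0172, 0.0193, 0.0275 and 0.0267). The call in HPP P was lost on leaving out any of 7 libraries, namely N P 1, N P 2, HPP P 1 and HPP P 2 (adjusted p = 0.14, 0.0862, 0.188 and 0.108) and N T 1, NPP P 1 and NPP P 2 (0.0501, 0.0511 and 0.0513), while the log2 fold change stayed between 0.45 and 0.57.

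MCF10A gave TSC1 at 16.3 and 16.6 CPM in N T, 21.8 and 14.8 CPM in H T, 34.5 and 12.9 CPM in NPP T, and 42.2 and 19.1 CPM in HPP T. Polysomal RNA gave 9.78 and 16.7 CPM in N, 12.5 and 16.7 CPM in H, 19.2 and 21.7 CPM in NPP, and 31.9 and 28.1 CPM in HPP. The PP242 libraries lay above N in P and in HPP T, and the low value in NPP T was that of NPP T 2. The log2 fold change was 1.18 ± 0.48 in HPP P (adjusted p = 0.0986) and 0.90 ± 0.47 in HPP T (0.241). DESeq2 called HPP P (adjusted p = 0.039). With the length offset these became 0.99 ± 0.18 and 1.03 ± 0.18, with adjusted p = 0.00181 and 0.00189. Without N P 1 and NPP T 2 they were 0.90 ± 0.40 and 0.97 ± 0.32 (adjusted p = 0.156 and 0.0519), and the small change in H P turned from 0.14 to −0.14. In NPP T the change of 0.53 turned to −0.35 when NPP T 1 was left out.

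TSC2 (tuberin, ENSG00000103197, chr16:2047967-2089491, plus strand, 42 exons) carries the GTPase-activating domain for RHEB. In MCF10A polysomal RNA it ran from 20.5 and 29.8 CPM in N to 36.7 and 47.3 CPM in HPP, with 24.0 and 35.8 CPM in H and 40.0 and 30.8 CPM in NPP. HPP and NPP lay above N there, while H overlapped it. The log2 fold change was 0.74 ± 0.29 in HPP P (adjusted p = 0.0843) and 0.43 ± 0.28 in HPP T (0.361). DESeq2 called HPP P (0.76 ± 0.30, adjusted p = 0.0429). Leaving out N P 1 and NPP T 2 lowered the HPP P value to 0.55 ± 0.33 (adjusted p = 0.282). In MDA-MB-231, TSC2 stayed between 23.4 and 47.0 CPM, with log2 fold changes from −0.40 to 0.18. Its exons share bases with PKD1 on the opposite strand, and the counting did not use strand, so reads from the shared part cannot be assigned to 1 gene.

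TBC1D7 (ENSG00000145979, chr6:13266542-13328583, minus strand), the subunit that holds the complex together, went the other way in MCF10A. It stood at 28.7 and 15.7 CPM in N P and at 14.6 and 11.4 CPM in HPP P, and at 14.6 and 14.5 CPM in N T against 8.16 and 9.77 CPM in HPP T. HPP lay below N in both fractions, with log2 fold changes of −0.77 ± 0.37 in P and −0.70 ± 0.37 in T (adjusted p = 0.152 and 0.241). Without N P 1 and NPP T 2 the value in P was −0.22 ± 0.33. In MDA-MB-231, TBC1D7 ran from 16.4 to 20.6 CPM in T and from 17.98 to 27.7 CPM in P, and no log2 fold change exceeded 0.30. Its exons overlap PHACTR1 by 700 bases on the opposite strand, a gene with at most 176 counts in a library, and those of a long non-coding RNA (ENSG00000215022) by 568 bases on the same strand.

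RHEB (ENSG00000106615, chr7:151466012-151520120, minus strand), the GTPase under control of the TSC complex and so the member that activates mTORC1, was the most abundant of these mRNAs per length in normoxic total RNA of MDA-MB-231. MCF10A polysomal RNA gave 276 and 145 CPM in N, 195 and 115 CPM in H, 220 and 173 CPM in NPP, and at most 140 CPM in HPP. HPP lay below N, at a log2 fold change of −0.80 ± 0.36 (adjusted p = 0.133), which became −0.22 ± 0.37 without N P 1 and NPP T 2. In total RNA the value was −0.42 ± 0.36. In MDA-MB-231, RHEB ran from 220 to 383 CPM over the 16 libraries, and its log2 fold changes lay between 0.05 and 0.24. The processed pseudogenes RHEBP1 and RHEBP2 also had counts, up to 544 for RHEBP2 in MCF10A, and RSEM shares reads among such copies by its own estimates. How far this sharing affects the values of RHEB was not measured.

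**Figure D3:**
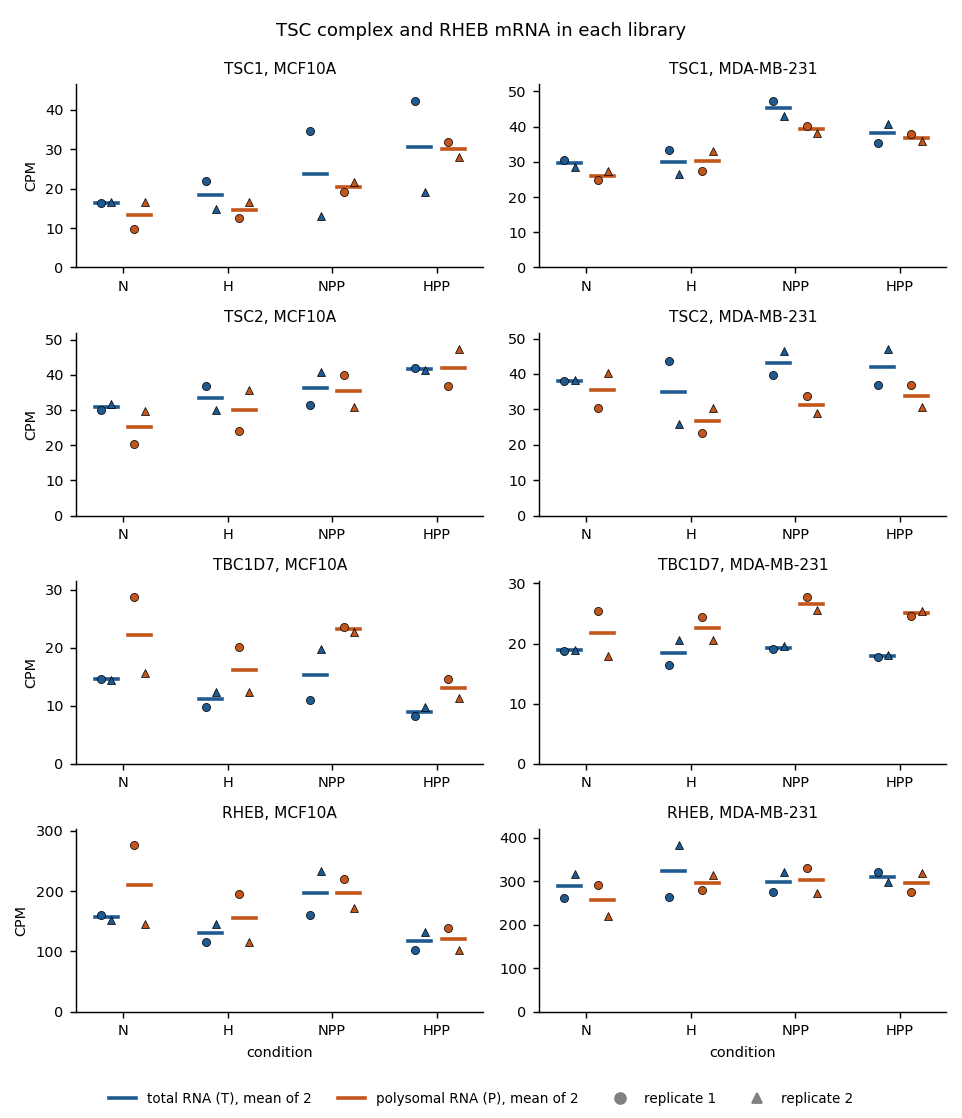
CPM of TSC1, TSC2, TBC1D7 and RHEB (y axes, from 0) in the 4 conditions of MCF10A (left) and MDA-MB-231 (right), with T in blue, P in orange, circles for replicate 1, triangles for replicate 2 and bars for the mean of the 2. TSC1 in MDA-MB-231 lies at 35.3 CPM or more in every PP242 library and at 33.4 CPM or less in every other.

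On the energy-sensing side, STK11 (LKB1, ENSG00000118046, chr19:1177558-1228431, plus strand) was lower in MCF10A under the combined treatment. It stood at 38.0 and 42.5 CPM in N T and 23.9 and 22.6 CPM in HPP T, and at 37.0 and 30.7 CPM in N P and 27.8 and 13.8 CPM in HPP P. HPP lay below N in both fractions, while H and NPP overlapped it. The log2 fold change was −0.79 ± 0.34 in HPP T and −0.70 ± 0.34 in HPP P (adjusted p = 0.145 and 0.159). In MDA-MB-231 the same contrasts gave 0.20 ± 0.24 and 0.28 ± 0.24, and STK11 ran from 32.01 to 59.8 CPM. In hypoxia alone its log2 fold change lay between −0.14 and 0.19 over both lines and fractions.

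PRKAA1, encoding AMPK α1 (ENSG00000132356, chr5:40759389-40798374, minus strand), did not pass the test against normoxia in either line. It ran from 80.1 to 130 CPM in MDA-MB-231, with log2 fold changes from −0.22 ± 0.17 in H P to 0.16 ± 0.17 in HPP P. In MCF10A it ran from 14.4 to 74.6 CPM, with standard errors of 0.67 on the log2 scale. PRKAA2, encoding AMPK α2 (ENSG00000162409, chr1:56645314-56715335, plus strand), had higher means in the hypoxic than in the normoxic groups of MCF10A. The HPP T libraries overlapped N T, however, and the gene did not pass the test against normoxia in either line. Total RNA gave 6.06 and 4.32 CPM in N, 13.4 and 8.98 CPM in H, 6.98 and 1.13 CPM in NPP, and 16.96 and 5.64 CPM in HPP. Polysomal RNA gave 2.34 and 5.89 CPM in N, 7.32 and 9.64 CPM in H, 4.34 and 3.28 CPM in NPP, and 9.72 and 7.74 CPM in HPP. H lay above N in both fractions and HPP in P, and the lowest value was again that of NPP T 2. The log2 fold change was 1.11 ± 0.71 in H T and 1.124 ± 0.71 in HPP T (adjusted p = 0.71 and 0.339). With the length offset the standard errors fell to 0.38 and HPP T passed, at 1.202 (adjusted p = 0.0378). In MDA-MB-231, PRKAA2 ran from 10.3 to 15.9 CPM, with a log2 fold change of 0.35 ± 0.16 in HPP P (adjusted p = 0.145).

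**Figure D4:**
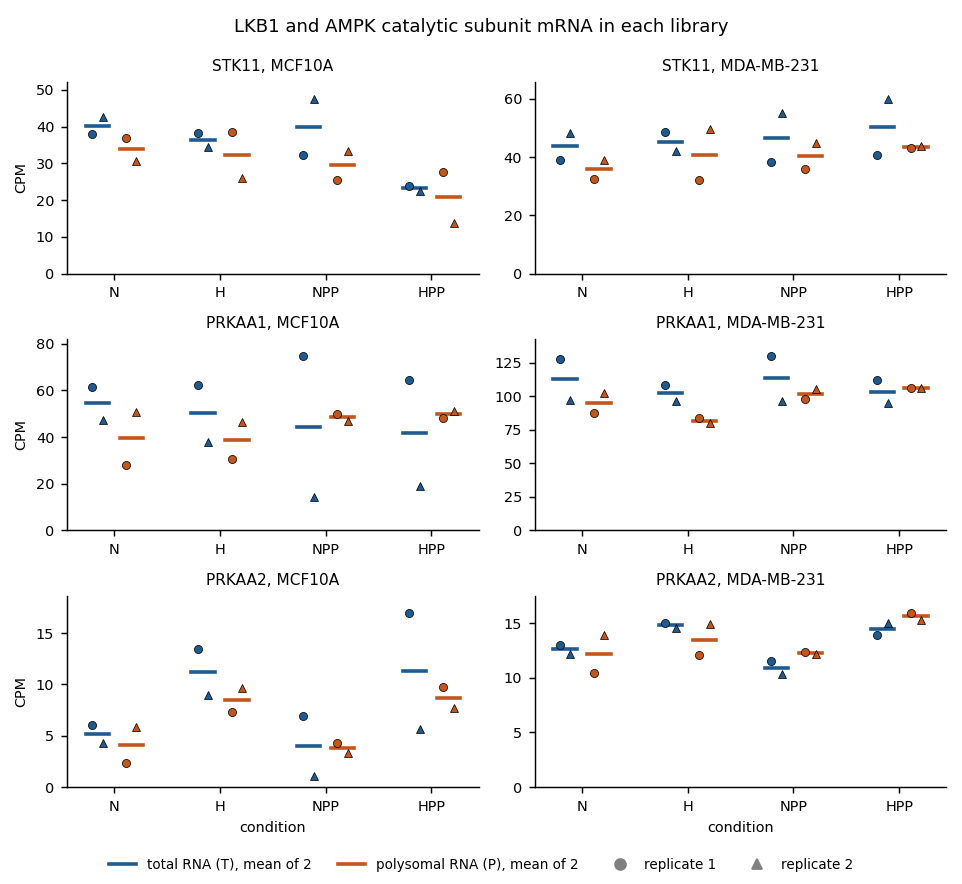
CPM of STK11, PRKAA1 and PRKAA2 (y axes, from 0) in the 4 conditions of MCF10A (left) and MDA-MB-231 (right), with T in blue, P in orange, circles for replicate 1, triangles for replicate 2 and bars for the mean of the 2. PRKAA1 and PRKAA2 are lowest in the second NPP T library of MCF10A, at 14.4 and 1.13 CPM.

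Of these genes 9 could be tested in MCF10A, and all 10 in the carcinoma line. In MCF10A edgeR called 0 of the 9 in each of the 6 contrasts with normoxia. The share of all 13124 tested genes called was 1.54% in H T, 0.648% in NPP T, 14.9% in HPP T, 1.49% in H P, 0.823% in NPP P and 22.2% in HPP P. At an unadjusted p under 0.05 the members numbered 1, 1, 3, 1, 0 and 4 in the same order, against 10.9%, 9.54%, 29.1%, 12.5%, 13.3% and 36.2% of all genes. DESeq2 called 1, 0, 1, 1, 0 and 3 members, against 3.83%, 2.84%, 20.9%, 4.24%, 5.17% and 28.3% of the genes it tested. In MDA-MB-231 edgeR called 0 of the 10 in H T, NPP T, HPP T, H P and NPP P, where 1.27%, 0.555%, 13.2%, 2.29% and 1.95% of 13510 genes were called. Unadjusted p under 0.05 was reached by 2, 1, 3, 2 and 1 members there, against 12.7%, 10.3%, 28.8%, 17.2% and 13.6% of all genes. DESeq2 called 0, 1, 1, 1 and 1, against 2.77%, 2.06%, 16.9%, 5.23% and 4.53% of the genes it tested. In HPP P edgeR called 2 of the 10, SESN2 down and TSC1 up, against 19.4% of all genes, which is close to the background. There 4 members reached an unadjusted p under 0.05, against 34% of all genes, and DESeq2 called 2, against 24.5%. The median log2 fold change of the tested members lay between −0.39 (HPP T) and 0.34 (HPP P) in MCF10A, and between 0.03 (H T) and 0.25 (HPP P) in MDA-MB-231, where the medians over all tested genes lay between −0.05 and 0.01.

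**Figure D5:**
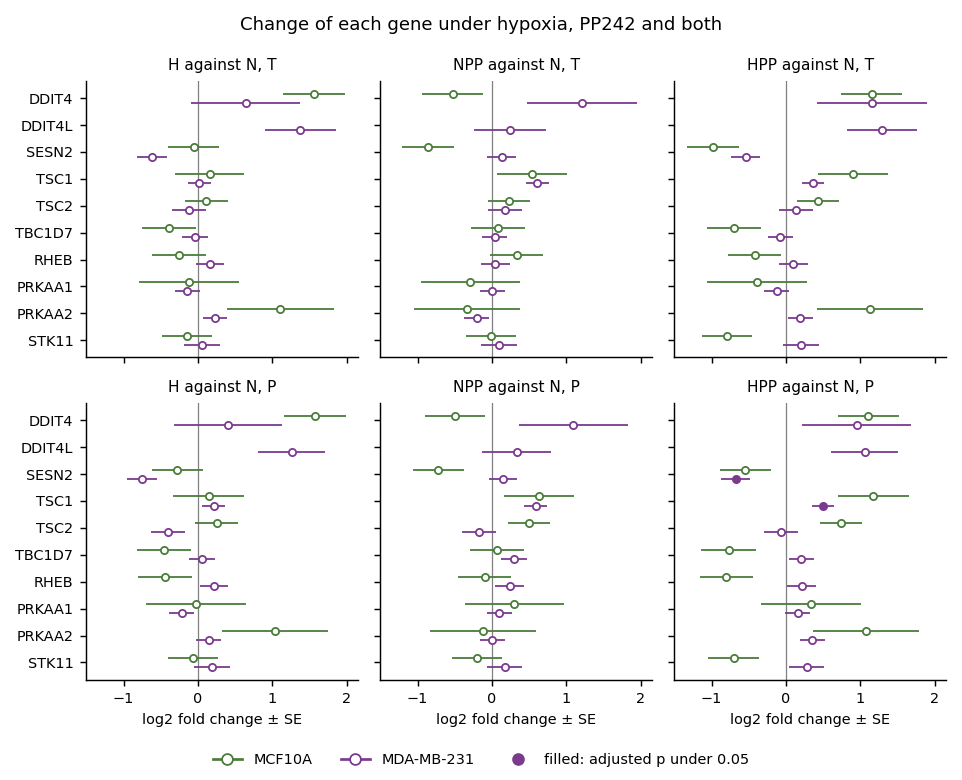
Log2 fold change ± SE against normoxia (x axes) of each of the 10 genes (y axes) in H, NPP and HPP, for T (top row) and P (bottom row), with MCF10A in green, MDA-MB-231 in purple and filled points for adjusted p under 0.05. DDIT4 in MCF10A sits near 1.56 in H in both fractions, and the only filled points are SESN2 and TSC1 of MDA-MB-231 in HPP P.

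Whether translation changed apart from abundance was asked with Te. This measure, the log2 fold change in P minus that in T, was 0.01 ± 0.57 for DDIT4 in MCF10A in H and −0.05 ± 0.57 in HPP. For SESN2 and TSC1 in MDA-MB-231 under HPP it was −0.13 ± 0.28 and 0.13 ± 0.22. In the interaction test Te passed for 0 members in H, NPP and HPP of either line, by edgeR or by DESeq2, and 0 reached an unadjusted p under 0.05. Of all genes, edgeR called 0%, 0% and 0% for MCF10A, against 0.0148%, 0.34% and 0.696% for MDA-MB-231. This fit did not pair T and P libraries that share a number in their titles. Its SE of Te and of loading can therefore hold spread between replicates that both fractions share. In this unpaired fit, a change in Te of the size seen for these genes was not detectable. At baseline, loading on polysomes in normoxia (P against T) gave 0 calls among the members in both lines by both tools, and 0 at an unadjusted p under 0.05, where edgeR called 0% of MCF10A genes and 13.1% of those tested for MDA-MB-231. TBC1D7 in MCF10A gave 0.61 ± 0.36 and DDIT4 in MDA-MB-231 0.52 ± 0.73. Within each replicate number, DDIT4 in MDA-MB-231 was higher in P than in T, at 134 against 90.7 CPM in the first and 35.9 against 26.7 CPM in the second. For Te and loading, the shares of all genes by DESeq2 and at an unadjusted p under 0.05 are not given. The member counts by these measures are thus not set against a background.

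Whether PP242 moved these genes on top of low oxygen was asked by setting HPP against H. DDIT4 was lower with PP242 in MCF10A, by −0.41 ± 0.41 in T and −0.47 ± 0.41 in P on the log2 scale, and higher in MDA-MB-231, by 0.51 ± 0.73 and 0.54 ± 0.73. TSC1 in MCF10A stood higher by 0.74 ± 0.47 in T and 1.03 ± 0.47 in P (adjusted p = 0.521 and 0.24). With the length offset these passed, at 0.89 ± 0.18 in both (adjusted p = 0.0109 and 0.00786). SESN2 in MCF10A was at −0.93 ± 0.35 in T, without overlap, and at −0.27 ± 0.35 in P, where the libraries overlapped (adjusted p = 0.199 and 0.723). PRKAA1 in polysomal RNA of MDA-MB-231 stood at 83.5 and 80.05 CPM in H and at up to 106.4 CPM in HPP, without overlap, at a log2 difference of 0.38 ± 0.17 (adjusted p = 0.169). Over the members edgeR and DESeq2 called 0 in either fraction and line, with 1, 0, 1 and 1 at an unadjusted p under 0.05 in MCF10A T, MCF10A P, MDA-MB-231 T and MDA-MB-231 P. Of all genes 15.8%, 21%, 18.5% and 26.6% had such a p, and DESeq2 called 8.12%, 12%, 8.13% and 17.1% of those it tested. The share of all genes called by edgeR was 3.74% and 6.5% for MCF10A T and P, against 3.78% and 11.5% for MDA-MB-231. The departure of HPP from the sum of both single treatments also gave 0 calls by both tools and 0 at an unadjusted p under 0.05. Of all genes, edgeR called 0% in both fractions of MCF10A and 0.0074% in both of MDA-MB-231. The shares by DESeq2 and by unadjusted p are not given for this departure, so those member counts have no background beside them. For DDIT4 in MCF10A this departure was 0.11 ± 0.57 in T and 0.03 ± 0.57 in P.

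Differences in response between the lines were tested in a joint fit of all 32 libraries. Of the 10 members 0 passed in any of the 6 contrasts by edgeR or DESeq2, while edgeR called 0.266%, 0.056% and 3.31% of 14298 genes in H T, NPP T and HPP T, and 0.329%, 0.126% and 3.6% in H P, NPP P and HPP P. The response of DDIT4 to hypoxia differed (MDA-MB-231 minus MCF10A) by −0.89 ± 0.96 in T and −1.25 ± 0.96 in P (adjusted p = 1 and 0.977), and did not pass the test. At an unadjusted p under 0.05 stood SESN2 under NPP, with differences of 1.06 ± 0.41 in T and 0.91 ± 0.41 in P, STK11 under HPP, with 1.09 ± 0.41 and 0.97 ± 0.41, and TSC2, TBC1D7 and RHEB in HPP P, with −0.83 ± 0.39, 0.95 ± 0.40 and 0.99 ± 0.41. Their adjusted p lay between 0.177 and 1. These were 0, 1 and 1 members in H T, NPP T and HPP T and 0, 1 and 4 in H P, NPP P and HPP P, where 7.47%, 4.13%, 15.4%, 6.49%, 4.4% and 16.7% of all genes had such a p. DESeq2 called 0.888%, 0.319%, 5.22%, 0.92%, 0.407% and 6.9% of the genes it tested in the same order. Leaving out 1 library brought 1 call each for STK11 in HPP P (1.51, adjusted p = 0.0492, without MCF10A HPP P 1) and PRKAA1 in NPP T (2.01, adjusted p = 0.0434, without MCF10A NPP T 1).

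The baseline levels of these genes were set side by side without a test, since line and sequencing cannot be told apart and the tables were scaled within each line. DDIT4 in normoxic total RNA had a mean of 539 CPM in MCF10A and 58.7 CPM in MDA-MB-231, a 9.18-fold difference, which became 5.94-fold against the first MDA-MB-231 library alone and 20.2-fold against the second. The other members leaned towards MDA-MB-231, with PRKAA2 2.43-fold, PRKAA1 2.07-fold, RHEB 1.85-fold, TSC1 1.80-fold and SESN2 1.57-fold higher there in total RNA and no overlap between libraries. TBC1D7 and TSC2 were 1.30-fold and 1.24-fold higher there, and STK11 overlapped between the lines. DDIT4L had a mean of 1.55 CPM in MDA-MB-231 and 0.139 CPM in MCF10A, where 5 and 7 counts lay behind it. Per kilobase of exon union, the order of levels in normoxic total RNA of MCF10A was DDIT4 (mean 254.5 CPM per kb), RHEB (44.3), PRKAA1 (8.32), STK11 (4.57), SESN2 (2.70), TBC1D7 (1.75), TSC2 (1.51), TSC1 (0.933), PRKAA2 (0.555) and DDIT4L (0.0464), and no neighbours in this order overlapped. In MDA-MB-231 it was RHEB (81.8 CPM per kb), DDIT4 (27.7), PRKAA1 (17.2), STK11 (4.97), SESN2 (4.24), TBC1D7 (2.27), TSC2 (1.86), TSC1 (1.68), PRKAA2 (1.35) and DDIT4L (0.519), where DDIT4 overlapped PRKAA1 and STK11 overlapped SESN2. Divided by the longest transcript instead, SESN2 came after TBC1D7 and TSC2 in both lines, although its libraries overlapped those of TSC2 in MDA-MB-231.

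The genes whose levels followed DDIT4 most closely over the 16 MCF10A libraries were GPR146, ADM, ZNF114, RCN3 and ANGPTL4 (Pearson r of log2 CPM from 0.954 to 0.938). ADM and ANGPTL4 encode the secreted proteins adrenomedullin and angiopoietin-like 4, both known targets of low oxygen. In MDA-MB-231 they were SMIM14, SLC2A1, TM4SF1, AVPI1 and FBLN1 (r from 0.934 to 0.901), where SLC2A1 encodes the glucose transporter GLUT1. For SESN2 they were NLRC5, ARHGEF26, PLEKHA7, PDE3A and GCC1 in MCF10A (r from 0.936 to 0.879) and TBC1D31, IARS, LIG1, MTHFD1 and RAD9A in MDA-MB-231 (r from 0.924 to 0.907). These correlations describe libraries that share treatments and, in MCF10A, the differences in long genes, and they carry no test. By rank correlation RCN3 stayed among the 5 closest to DDIT4 in MCF10A, and SMIM14, SLC2A1 and AVPI1 did in MDA-MB-231. For SESN2 all 5 stayed in MCF10A, but of the 5 in MDA-MB-231 only TBC1D31 did.

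Around these genes, 5 lists of the wider pathway were counted in the same contrasts with normoxia. Of the genes that bind or feed REDD1 and RHEB, all 8 were tested in both lines and 2 rose in each of the 6 contrasts of MCF10A. TXNIP, which encodes an arrestin-like protein that binds REDD1, rose in each of these, by 2.67 ± 0.39 in H T, 3.01 ± 0.40 in NPP T and 4.46 ± 0.42 in HPP T on the log2 scale (adjusted p = 0.00514, 0.00689 and 0.000132). BNIP3, a mitophagy receptor that binds RHEB, rose in H and HPP, with 2.54 ± 0.36 in H T, and RHEBL1, a relative of RHEB, rose in NPP, with 2.24 ± 0.42 in T (adjusted p = 0.0372). In MDA-MB-231 the number that rose was 1 in H T, 2 in NPP T, 3 in HPP T, 1 in H P, 2 in NPP P and 3 in HPP P. BNIP3 rose by 2.64 ± 0.16 in H T there, RHEBL1 by 1.83 ± 0.30 in NPP T and TXNIP by 0.99 ± 0.17 in NPP T, whereas TXNIP in H T gave 0.32 ± 0.17 (adjusted p = 0.486). ATF4, which encodes a transcription factor of the stress response that acts on DDIT4 and SESN2, did not pass in any of these contrasts.

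Among the other sestrins and the partners of LKB1 and AMPK, 10 of 12 genes were tested in MCF10A and edgeR called 0 in each of the 6 contrasts, with 0 to 5 at an unadjusted p under 0.05 and 1 call by DESeq2 in each of NPP T and HPP T. In MDA-MB-231, where 11 were tested, 1 passed in HPP T, 1 in H P, 1 in NPP P and 4 in HPP P. SESN3 rose there by 1.81 ± 0.22 in HPP T, 1.01 ± 0.22 in NPP P and 1.78 ± 0.22 in HPP P (adjusted p = 0.000223, 0.0256 and 8.35e-05), so it moved opposite to SESN2 in HPP P. PRKAG1, an AMPK γ subunit, fell by 0.73 in H P and 0.64 in HPP P, while PRKAB2 and PRKAG2 rose by 0.71 and 0.55 in HPP P. Of the 15 genes of the amino acid arm, all tested, 1 passed in NPP T, 2 in HPP T and 1 in HPP P of MCF10A, and 2 each in HPP T and HPP P of MDA-MB-231. MIOS, of the GATOR2 complex, fell in NPP T of MCF10A, by 1.48, and in HPP T of both lines, by 1.05 in MCF10A and 0.55 in MDA-MB-231. GATSL3 rose by 1.37 ± 0.37 in HPP T and ITFG2, of the KICSTOR complex, by 1.06 ± 0.25 in HPP P of MCF10A (adjusted p = 0.0282 and 0.0125). In MDA-MB-231, SEH1L fell by 0.42 in HPP T and 0.40 in HPP P, and NPRL3, of GATOR1, by 0.56 in HPP P. Of the 12 genes of growth factor input 1 passed in HPP P of each line, RPS6KA1 with a fall of 0.87 in MCF10A and PIK3CA with a rise of 0.67 ± 0.16 in MDA-MB-231. Of the 5 mTORC1 subunits edgeR and DESeq2 called 0 in each of these contrasts in both lines, with 0 or 1 at an unadjusted p under 0.05. The shares of all genes called in the same contrasts are given above, but these lists were chosen with earlier results of the data known, so their counts are a description.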

How the data were processed

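Poly(A) RNA-Seq libraries of total and polysomal RNA were sequenced by the authors, who aligned the reads with STAR 2.5.1b and estimated gene counts with RSEM 1.2.28 on GENCODE 24. The deposited values are estimated counts (RSEM expected counts given as whole numbers), not normalised. The study's methods name GRCh38, while the submitters' processing notes name GRCh37, so loci are given from GENCODE 44 on GRCh38 by gene identifier (98.4% of protein-coding identifiers matched) and no coordinate was taken from the files. The library kit does not mark strand and RSEM ran with its default parameters, which do not use strand.

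Here, protein-coding genes of each line were filtered (filterByExpr), scaled (TMM) and tested with edgeR 4.0.16 (quasi-likelihood test, 8 groups, 16 libraries, Benjamini-Hochberg over all tested genes, adjusted p under 0.05) in R 4.3.3 with limma 3.58.1. Te was the fraction by treatment interaction, and differences between lines came from a joint fit of 32 libraries. DESeq2 1.42.0, other filters, other sets of libraries, replicate blocks and each library left out served as alternatives. The procedure was tested on simulated data. The members and pathway lists were chosen with earlier results of these data known. All 10 members are named in the text, and of the pathway lists those that passed a test, with ATF4 and TXNIP also where they did not. A further gene of the pathway lists that passed is not reported here. Depth ran from 18340916 to 46032327 counts per library, which limits genes near the filter. The median was 37504616 counts in MCF10A, where DDIT4L was removed, and 31862570 in MDA-MB-231, where it was tested. Each group had 2 libraries, described as biological replicates.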

Additional observations from a re-analysis of the deposited data

How the results depend on the processing

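With 1 library left out, the fold change turned sign for TSC1 in MCF10A NPP T (−0.35 without the first NPP T library) and for DDIT4 in MDA-MB-231 (−0.14 in NPP T and −0.34 in NPP P without the first library of the group). Over each library left out, these fold changes ranged up to 1.07, 2.35 and 2.38. Changes in MCF10A that did not pass also turned sign without N P 1 and NPP T 2, among them those in H P of TSC1 (to −0.14), TBC1D7 (to 0.08) and RHEB (to 0.13) and those in NPP T of PRKAA1 (to 0.45), PRKAA2 (to 0.42) and TBC1D7 (to −0.42). Under DESeq2 and the length offset some other changes near 0 did so too. With each library left out in turn, the number of members called ranged from 0 to 1 in MCF10A H T, H P and HPP T, from 0 to 3 in MCF10A HPP P, from 0 to 1 in MDA-MB-231 H P, HPP T and NPP P, from 0 to 2 in MDA-MB-231 HPP P, and from 0 to 1 in the line differences of NPP T and HPP P. In MCF10A, against 0 members called, DESeq2 gave 1 in H T, HPP T and H P and 3 in HPP P. The length offset gave 1 in H T and H P, 3 in HPP T, 2 in HPP P, and 1 in HPP against H in T and in P. Without N P 1 and NPP T 2 there was 1 in H T and in HPP T, the fit to only the libraries compared gave 1 in H T, and an adjusted p under 0.10 gave 2 in HPP T and 3 in HPP P. In MDA-MB-231, DESeq2 and the length offset each gave 1 in NPP T, HPP T, H P and NPP P. In HPP T the gene called was DDIT4L by DESeq2 but TSC1 with the length offset. An adjusted p under 0.10 gave 2 in HPP T and 1 in H P and NPP P. No filter beyond 1 read and the fit to only the libraries compared each gave 1 in HPP T. Against 2 in HPP P, the fit to only the libraries compared gave 1 and a limit of 1 on the absolute log2 fold change gave 0. Apart from DESeq2, these counts stand without the share of all genes called under the same setting, so they describe the members only. The cause of these shifts was not tested. All gene classes together changed no fold-change call.

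T and P libraries of the same condition and replicate share a number in their titles, and the labels do not say what it stands for. Replicates of different conditions share only the replicate number. In MCF10A, deviations of same-numbered libraries correlated at 0.283 to 0.778 within T, at −0.1 to 0.635 within P and at −0.641 to 0.214 between T and P. In MDA-MB-231 they correlated at −0.187 to 0.348. With the replicate block, 1 member passed in MCF10A HPP P (DDIT4, edgeR adjusted p = 0.0494, against 23% of all genes in that fit), and 2 in HPP T (DDIT4L and DDIT4), 1 in H P (SESN2), 1 in NPP P (TSC1) and 3 in HPP P of MDA-MB-231, against 18.4%, 4.52%, 3.34% and 25.3%. With the replicate block within each fraction, MCF10A gave 1 in H T, HPP T and H P (DDIT4, edgeR adjusted p = 0.0343, 0.0272 and 0.0309), 5 in HPP P (DDIT4, TSC1, TSC2, TBC1D7 and RHEB) and 2 in loading, against 3.34%, 26.5%, 4.05%, 36.5% and 16.7% of all genes. MDA-MB-231 gave 1 in HPP T, H P, NPP P, HPP against H in P, and loading, against 19.3%, 4.74%, 3.61%, 17.7% and 21.9%, and 3 in HPP P, against 26.7%. A block on the title number shared by T and P gave 0 members in Te. DDIT4L had 0 to 14 counts per library in MCF10A, although these libraries had the higher median depth.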
